A study of Mus musculus with 2 samples.

Results

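The genes described here encode PD-L1 and other surface proteins and enzymes through which a cell can restrain the immune cells that meet it. They are Cd274, Cmtm6, Cd276, Vsir, Pvr, Nectin2, Lgals9, Cd47 and Nt5e, named by symbol for their known roles. All 9 were found among the 12707 protein-coding genes of the deposited table. RNA was sequenced from live CD45-negative cells sorted from Py8119 tumours, and the study compared 2 kinds of host. The first was the Mtdh knockout mouse and the second the Mtdh wild-type mouse, with 1 library for each, called here the KO-host and the WT-host library. The injected Py8119 cells, a mouse mammary tumour line, carried wild-type Mtdh in both hosts, so the genotype compared is that of the host. Mtdh encodes metadherin, a protein linked to the growth and spread of mammary tumours. The labels do not say how the host allele was made, how many tumours went into a library, or the strain, sex and age of the mice. The design therefore asks how the CD45-negative part of the tumour, which can include host fibroblasts, pericytes and endothelial cells, differed with the genotype of the host.

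PD-L1, on a tumour cell or a myeloid cell, binds PD-1 on activated T cells and dampens signalling from their antigen receptor. Interferon gamma made by T and NK cells is its best known inducer, acting through the kinases JAK1 and JAK2 and the transcription factor IRF1. At the cell surface the PD-L1 protein is held, as shown in human cells, by CMTM6, a membrane protein that keeps it from being sent to lysosomes. The other genes act through other receptors: the nectin ligands through TIGIT, CD96 and CD226, CD47 through SIRPα on phagocytes, and the enzyme CD73, the product of Nt5e, by making adenosine.

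The KO-host library held 23381774 recovered reads and the WT-host library 26069246. Values in RPM below are reads per 1000000 of these totals. Mtdh itself had 23130 reads in the KO-host library and 28376 in the WT-host library, a ratio of 0.909, which checks the labels only as far as host cells gave RNA. Vim and Zeb1, markers of mesenchymal cells, had 67959 and 4810 reads in the KO-host library, against 82646 and 5745 in the WT-host library. Ptprc, which encodes CD45, had 64.0 KO-host reads against 46.0 WT-host reads. A single library per host leaves nothing to estimate replicate error from. No p-value is therefore given, and every difference describes this pair of libraries. The 95% intervals are exact binomial ones for the split of the reads, and since the reads carry no molecular identifiers they cover counting error only. In such sorted samples, fewer cells of a type and less RNA per cell cannot be told apart.

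Cd274 was the gene with the clearest difference. On the deposited scale, log2(FPKM + 1), it was the only one of the 9 genes past a difference of 1. Of the 9 genes, 5 had the mean log2 value of 1 or more that a call on this scale needed. Over all 6057 genes with that mean, 2.31% were higher by this rule in the KO-host library and 2.64% were lower. On the scale of reads, where a call needed a 2-fold difference, 100 reads over both libraries and a value above 0 in each, all 9 genes could be called. Cd274 and Lgals9 were higher and 0 were lower, against 8.39% higher and 11.3% lower over 10647 genes. A further 69 genes with 100 reads were at 0 in the WT-host library and 97 in the KO-host library, and had no ratio. The 9 genes had a median difference of 0.08 on the deposited scale, against -0.01 over all listed genes. Their median log2 read ratio was 0.29, against -0.06 over all genes with 100 reads. By log2 read ratio, 7 of the 9 genes lay above 0 and 2 below.

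**Figure D1:**
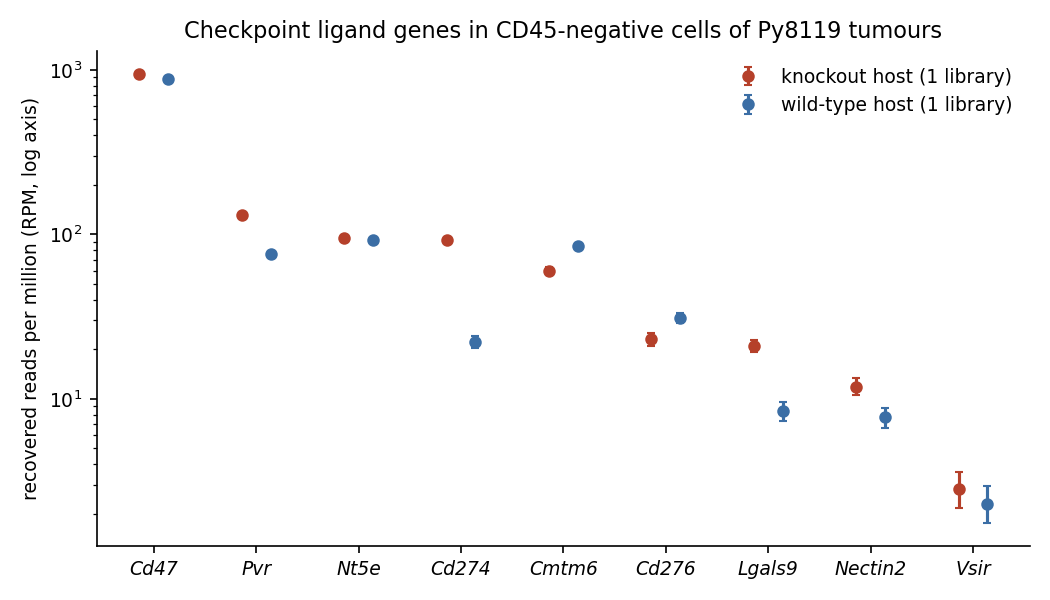
RPM of each checkpoint ligand gene (y, log axis) in the KO-host library (red, left of each pair) and the WT-host library (blue, right), with exact Poisson 95% intervals for counting error. Cd274 lies at 92.8 KO-host against 22.3 WT-host RPM and Pvr at 130.8 KO-host against 76.0 WT-host RPM, while Cmtm6 and Cd276 lie lower in the KO-host library.

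PD-L1 RNA lay higher in the KO-host library and the RNA of its stabiliser lower, though only Cd274 passed the rules. Cd274 (ENSMUSG00000016496) lies on mm39 chromosome 19, from 29344855 to 29365495 on the plus strand. Its level was FPKM 4.50 in the KO-host library and 1.08 in the WT-host library. These values stand for 2169.8 KO-host reads (92.8 RPM) against 580.5 WT-host reads (22.3 RPM). The read ratio was 4.17 (95% counting interval 3.80 to 4.57), and the difference in log2(FPKM + 1) was 1.40. The recovered values of Cd274 were not whole reads, and how reads that fit several loci were counted is not stated. An annotated antisense gene overlaps it over 11055 bases, and whether the counting used strand is not stated. Annotated genes on the opposite strand also overlap Cd276, Pvr and Nectin2.

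Cmtm6 (ENSMUSG00000032434) lies on chromosome 9, from 114560184 to 114578412 on the plus strand. Its level was FPKM 3.29 in the KO-host library and 4.66 in the WT-host library. It had 1404.0 KO-host reads (60.0 RPM) against 2216.0 WT-host reads (85.0 RPM). That is a ratio of 0.706 (95% counting interval 0.660 to 0.756) and a log2 difference of -0.40. Its RNA was thus 1.42-fold lower beside the higher Cd274, short of the threshold on both scales. As given below, 27.6% of genes of like depth differed as much in size. The ratio of the pair within a library does not depend on how libraries are scaled. There were 1.55 Cd274 reads for each Cmtm6 read in the KO-host library and 0.262 in the WT-host library, a 5.90-fold difference (95% counting interval 5.27 to 6.61 by the normal approximation of the log odds).

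The upstream sequence of the pair of genes past the 2-fold rule in reads, Cd274 and Lgals9, is shown because both are known targets of interferon gamma. Each line holds 250 bases before the annotated start, on the strand of the gene, from RefSeq on GRCm38.p6, at chr19:29367188-29367437 (plus strand) and chr11:78984925-78985174 (minus strand). Capitals mark matches to the motifs searched.
Cd274: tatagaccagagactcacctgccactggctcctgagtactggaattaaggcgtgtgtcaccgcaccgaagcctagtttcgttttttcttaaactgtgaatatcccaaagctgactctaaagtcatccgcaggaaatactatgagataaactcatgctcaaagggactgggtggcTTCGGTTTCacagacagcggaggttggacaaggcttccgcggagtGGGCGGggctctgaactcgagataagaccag
Lgals9: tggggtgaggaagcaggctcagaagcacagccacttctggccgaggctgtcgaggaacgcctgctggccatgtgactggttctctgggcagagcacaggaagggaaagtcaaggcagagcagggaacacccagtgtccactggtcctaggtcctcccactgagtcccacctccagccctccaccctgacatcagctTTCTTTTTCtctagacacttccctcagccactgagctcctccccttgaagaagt

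Both strands were searched for the core of the interferon-stimulated response element (GAAANNGAA), the gamma-activated site, GAS (TTCNNNGAA), the AP-1 site (TGANTCA), the NF-kB consensus, the GC box (GGGCGG) and the E-box (CACGTG). The Cd274 window held 1 response-element core, TTCGGTTTC on the other strand, from base -76 to -68 before the start, and 1 GC box from -31 to -26. The Lgals9 window held 1 response-element core, TTCTTTTTC on the other strand, from -54 to -46. These matches do not overlap. Neither window held the GAS site, the AP-1 site, the NF-kB consensus or the E-box, which says only that these letters are not in these windows. Of 32851 promoter windows of the same length, 7.13% held the response-element core, 7.02% the GAS site, 6.75% the AP-1 site, 7.25% the NF-kB consensus, 32.7% the GC box and 6.02% the E-box. The sequences had been seen when this form of the core was chosen. With 1 more A at its end, a form held by 2.98% of windows, Lgals9 still matched and Cd274 did not. Promoters were matched by symbol for 8 of the 9 genes (not for Pvr), and among these 8 only Cd274 and Lgals9 held the core upstream. A match is a description of letters and not of binding.

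The other B7 family members of the group showed no difference past the rules. Cd276 encodes B7-H3, a ligand abundant on many tumour and stromal cells. The gene, on chromosome 9 (58431581 to 58462720, minus strand), had 538.0 reads in the KO-host library and 811.0 in the WT-host library. In RPM it stood at 23.01 in the KO-host library against 31.1 in the WT-host library, a ratio of 0.740 (95% counting interval 0.662 to 0.826) and a log2 difference of -0.20. Cd276 thus lay on the same side as Cmtm6, below its WT-host value. Vsir encodes VISTA, an inhibitory ligand and receptor mostly found on myeloid cells and T cells. Its locus is on chromosome 10 (60182630 to 60208463, plus strand), inside the span of Cdh23 on the opposite strand. Vsir had 66.0 KO-host reads against 60.0 WT-host reads, or 2.82 KO-host against 2.30 WT-host RPM, a ratio of 1.23 with an interval from 0.851 to 1.77. No difference in Vsir was detectable at this depth. Of 16 further B7 and butyrophilin-like genes on a list made for this purpose, Igsf11 alone was in the table, with 43.0 reads in each library. Pdcd1lg2, which encodes PD-L2, and the others were not analysed here.

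Both ligands of the TIGIT and CD226 receptors were higher in the KO-host library. Pvr encodes CD155, the main ligand of TIGIT and CD96. It lies on chromosome 7 (19637503 to 19655085, minus strand) and was at FPKM 7.44 in the KO-host library and 4.32 in the WT-host library. It had 3058.0 KO-host reads (130.8 RPM) against 1981.0 WT-host reads (76.0 RPM). The ratio was 1.72 (95% counting interval 1.63 to 1.82) and the log2 difference 0.67, short of the threshold on both scales. Nectin2 encodes CD112, a ligand of PVRIG, TIGIT and CD226. Found on the same chromosome (19450569 to 19484408, minus strand), it had 278.0 KO-host reads (11.9 RPM) against 201.0 WT-host reads (7.71 RPM). The ratio was 1.54 (95% counting interval 1.28 to 1.86), and as given below, 53.8% of genes of like depth differed as much in size. The number of Pvr reads for each Nectin2 read was 11.0 in the KO-host library and 9.86 in the WT-host library. The ratio of these values, 1.12, had an interval from 0.923 to 1.35, so a difference between these 2 nectin ligands was not detectable at this depth.

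Nectins outside the group did not move as one. Nectin1 had 2539 reads in the KO-host library and 1233 in the WT-host library, 2.30-fold higher (95% counting interval 2.14 to 2.46). Nectin3, an adhesion protein that also binds Pvr and Nectin2, had 1057 KO-host reads against 1889 WT-host reads, a ratio of 0.624 (0.578 to 0.673). Cadm1, a related adhesion molecule that binds CRTAM, had 9797 KO-host reads against 9244 WT-host reads, a ratio of 1.18. Of these 3 genes, 1 was thus 2-fold higher, 0 were 2-fold lower and 2 lay between. Over all genes that could be called, 8.39% were higher and 11.3% lower.

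Lgals9 encodes galectin-9, a secreted lectin that binds TIM-3 on T cells and myeloid cells. On chromosome 11 (78853800 to 78875772, minus strand), it was at FPKM 0.956 in the KO-host library and 0.384 in the WT-host library. It had 491.0 reads in the KO-host library and 220.0 in the WT-host library, which is 2.49-fold higher per 1000000 reads (95% counting interval 2.12 to 2.93). Lgals9 was therefore the second gene past the 2-fold rule in reads. Its difference of 0.50 in log2(FPKM + 1) did not pass the deposited-scale rule, because its mean on that scale was 0.72 and the added 1 outweighs such values. With 0.1 added in place of 1 the difference was 1.12. Havcr2, which encodes TIM-3, had 36.0 KO-host reads against 2.0 WT-host reads and so was barely seen in either library.

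Cd47 and Nt5e were near a ratio of 1. Cd47 encodes the protein that tells phagocytes not to engulf a cell. The gene spans 49620896 to 49735373 of chromosome 16 (plus strand) and had 21998.8 reads (940.9 RPM) in the KO-host library and 23009.7 reads (882.6 RPM) in the WT-host library. The ratio was 1.07 (95% counting interval 1.05 to 1.09). Nt5e encodes CD73, which turns AMP into adenosine outside the cell. This gene, on chromosome 9 (88209250 to 88254145, plus strand), had 2226.0 KO-host reads (95.2 RPM) against 2395.0 WT-host reads (91.9 RPM), a ratio of 1.04 with an interval from 0.978 to 1.10. The interval of Nt5e includes 1, so no difference was detectable at this depth, and that of Cd47 lies above 1 by little.

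Counting error is the smaller part of the spread in this pair of libraries. The counting interval lay above a ratio of 1 for 5 of the 9 genes and below it for 2. The same share over all genes was not counted, so these numbers show nothing particular to the 9 genes. Each gene was therefore set beside the 500 genes with a ratio that were closest to it in depth, counted as reads over both libraries, as a description and not a test. Of the genes near Cd274, 2 of 500 had a log2 read ratio as large in size, and 1 was as high. Of those near Pvr, 24 were as large in size (4.80%) and 8 were as high. For Lgals9 the number as large was 93 (18.6%), and for Cmtm6 it was 138 (27.6%). Cd276 and Nectin2 had ratios that were matched in size by 255 and 269 of their 500 neighbours in depth. For Cd47, Nt5e and Vsir the numbers were 356, 452 and 423. Differences of the size seen for Cmtm6, Cd276 and Nectin2 were thus common among genes of the same depth, while those of Cd274 and Pvr were not.

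**Figure D2:**
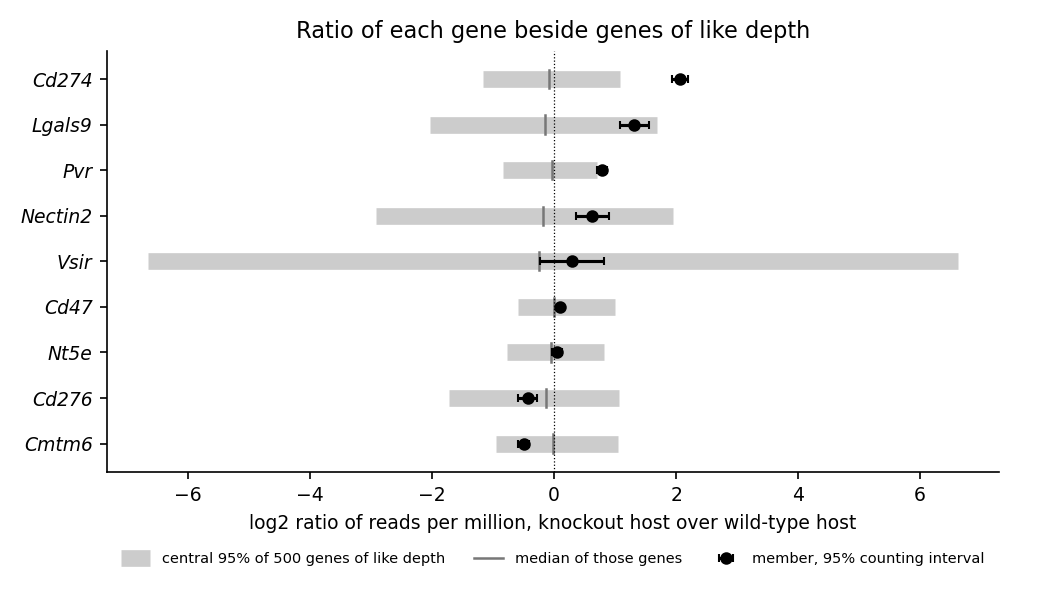
Log2 ratio of RPM, knockout host over wild-type host (x), of each gene (black points with 95% counting intervals) over the central 95% (grey bars) and the median (grey ticks) of the 500 genes closest in depth. Cd274 at 2.06 lies beyond the grey bar, whose upper end is 1.08, Pvr at 0.78 lies just beyond its own, at 0.70, and the other 7 genes lie inside.

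Within each library the order of the genes by level also changed. For this, reads were divided by the length of the merged exons in GENCODE M21, because the deposited FPKM use the genomic span with introns. Cd47 was the most abundant in both libraries, at 149.9 RPM per kilobase of exon (RPKM) in the KO-host library and 140.6 in the WT-host library. Cd47 made up 61.1% of the summed RPKM of the 9 genes in the KO-host library and 67.1% in the WT-host library. Cd274 had rank 2 in the KO-host library, at 25.6, and rank 6 in the WT-host library, at 6.15. Its share of the sum was 10.4% in the KO-host library against 2.93% in the WT-host library. Cmtm6 had rank 4 at 17.5 RPKM in the KO-host library and rank 2 at 24.7 in the WT-host library. Pvr had rank 3 in both, at 21.4 KO-host against 12.4 WT-host RPKM. In the KO-host library the others followed with Nt5e at 11.1 RPKM, Lgals9 at 9.83, Cd276 at 6.29, Nectin2 at 3.40 and Vsir at 0.563. In the WT-host library Nt5e was at 10.7 RPKM, Cd276 at 8.50, Lgals9 at 3.95, Nectin2 at 2.21 and Vsir at 0.459. Each neighbouring pair in these orders differed by more than counting error, the closest being Nt5e over Lgals9 in the KO-host library (1.13-fold, 1.02 to 1.24). The places near the top depend on the length used. Per kilobase of the longest annotated coding transcript, Pvr had rank 2, Cd274 rank 3 and Cmtm6 rank 5 in the KO-host library. In the WT-host library Pvr then had rank 2, Cmtm6 rank 3 and Cd274 rank 6 as before. This comparison was chosen after seeing the data.

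Relative to all 8 other genes Cd274 was higher in the KO-host library. The smallest shift was that against Lgals9, with 4.42 Cd274 reads for each Lgals9 read in the KO-host library and 2.64 in the WT-host library, a 1.67-fold difference (95% counting interval 1.39 to 2.01). Against Pvr the shift was 2.42-fold and against Nectin2 2.703-fold. Against Cd47 and Nt5e, which themselves differed little, it was 3.91-fold and 4.02-fold. Against Cd276 it was 5.63-fold.

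**Figure D3:**
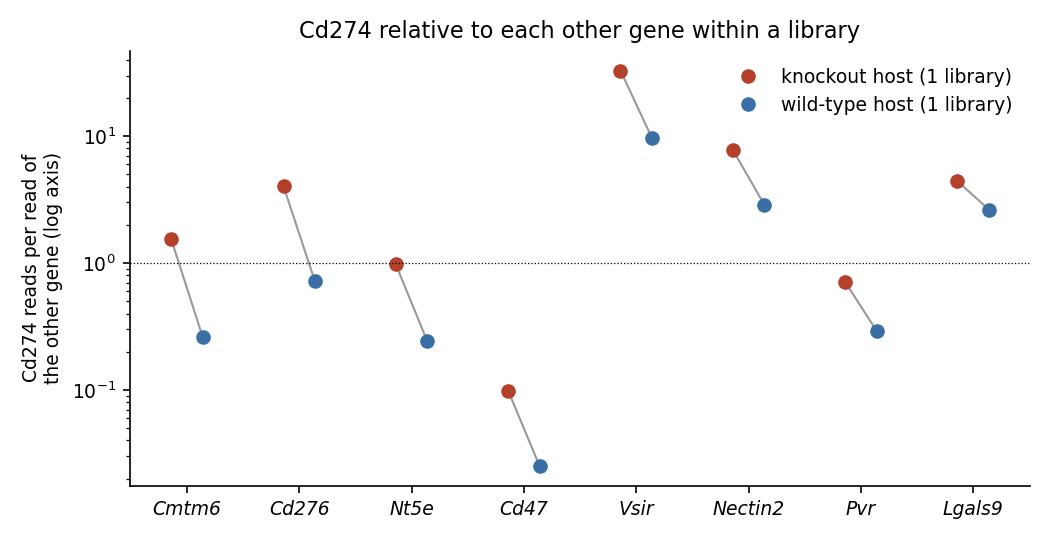
Number of Cd274 reads for each read of the other gene (y, log axis) within the KO-host library (red, left) and the WT-host library (blue, right). The ratio is higher in the KO-host library for all 8 genes, from 1.67-fold for Lgals9 to 5.90-fold for Cmtm6.

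Genes beside Cd274 on chromosome 19 were examined, 5 listed genes on each side. Jak2, a kinase of the interferon gamma receptor that lies 115.6 kb before Cd274 by gene start, had 1459 reads in the KO-host library and 904 in the WT-host library. Its ratio was 1.80 (95% counting interval 1.66 to 1.96). Ric1, the next listed gene after Cd274, had 2052 KO-host reads against 1377 WT-host reads, a ratio of 1.66 (1.55 to 1.78). Plgrkt, which encodes a plasminogen receptor, lies on the minus strand from 29325999 to 29344790. Its 5-prime end therefore faces Cd274, which begins at 29344855. Plgrkt had 387 KO-host reads against 324 WT-host reads, a ratio of 1.33 (1.15 to 1.55), and Rcl1 was at a ratio of 1.29. Farther out, Ak3 and Cdc37l1 were at 0.859 and 0.870, and Ermp1, 9930021J03Rik and Ranbp6 at 1.01, 0.935 and 1.07. Il33, the alarmin at the far end, had 167 KO-host reads against 394 WT-host reads and was the only one of the 10 neighbours past the 2-fold rule, on the lower side. None of the 10 neighbours reached the ratio of Cd274.

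**Figure D4:**
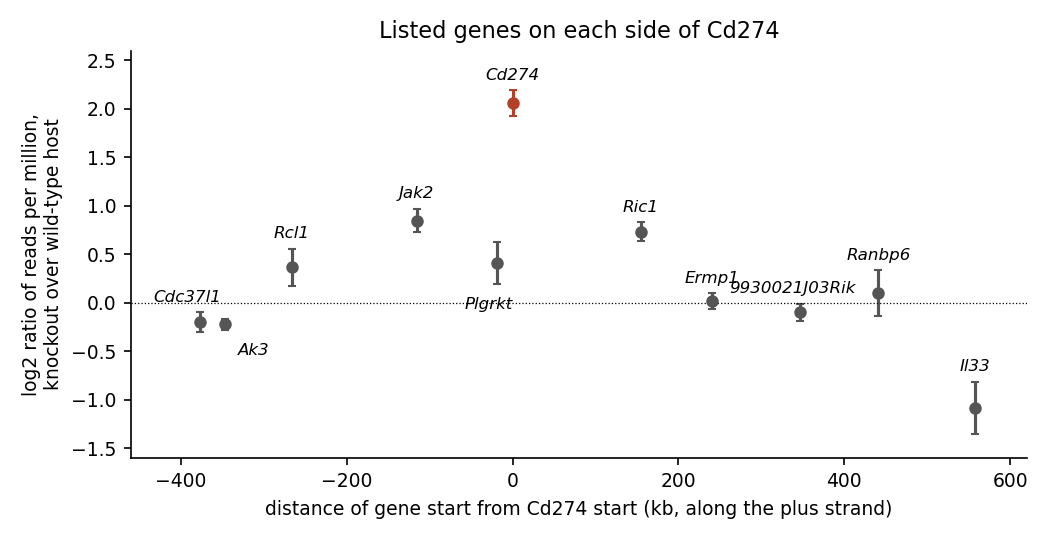
Log2 ratio of RPM, knockout host over wild-type host (y, with 95% counting intervals), against the distance of each gene's start from that of Cd274 in kb (x), for Cd274 (red) and the 5 listed genes on each side (grey). Cd274 is highest at 2.06, Jak2 and Ric1 follow at 0.85 and 0.73, and Il33 is lowest at -1.08.

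The genes most like Cd274 were sought among the 5615 others with at least 580.5 reads in both libraries, by the nearest log2 read ratio. They were Map2k3 at 2.17, Nlrc5 at 1.94, Nr4a3 at 1.92, Gbp7 at 2.20 and Ifi44 at 1.90, against 2.06 for Cd274. Nlrc5 is the transactivator of class I genes, Gbp7 a guanylate-binding protein and Map2k3 a kinase of p38. With 2 libraries this likeness rests on a single ratio. Of the 5615 genes, 4 had a ratio as high as that of Cd274 or higher (0.0712%). This share depends on the filter, which was set by the WT-host reads of Cd274 itself. Genes with fewer WT-host reads and higher ratios were left out by it, among them Igtp (82.0 WT-host reads, ratio 51.5) and Gbp3 (194.0 WT-host reads, ratio 12.6).

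Genes of the pathway that induces PD-L1 were mixed. Of 13 genes of the interferon gamma axis, 4 were 2-fold higher, 1 was 2-fold lower and 8 lay between, with a median log2 read ratio of 0.31. For this and the lists below, the shares over all genes that could be called were 8.39% higher and 11.3% lower. Stat2 was at a ratio of 2.77 and Irf1, which acts on the Cd274 promoter, at 2.20 with 12927.5 KO-host and 6556 WT-host reads. Jak1 was at 1.24. Ifngr2, a chain of the interferon gamma receptor, was lower, with 295 KO-host reads against 875 WT-host reads, a ratio of 0.376 (95% counting interval 0.328 to 0.429). Of 16 interferon gamma targets with 100 reads and a value above 0 in each library, taken for comparison, 15 were 2-fold higher, with a median log2 read ratio of 2.20. They ranged from B2m at a ratio of 1.49 to Igtp at 51.5. Another target with 100 reads, the chemokine gene Cxcl9, had 290.8 reads in the KO-host library and was at 0 in the WT-host library. Against a floor of 3 reads per library it was at least 108.1-fold higher, and the median with this bound was 2.29. Of 16 other factors that act on Cd274, 2 were 2-fold higher and 0 lower. These were Fosl1, an AP-1 subunit, at 4093 KO-host and 1671 WT-host reads, and Bcl3, a cofactor of NF-kB, at 78 KO-host and 32 WT-host reads. Nfkb1 was at a ratio of 1.79, Jun at 1.19 and Irf2bp2 at 0.963.

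Genes that act on the PD-L1 protein showed no difference past the 2-fold rule. Of 24 with 100 reads, 0 were higher and 0 lower, against 8.39% higher and 11.3% lower over all genes. Their median log2 read ratio was 0.14. The largest ratios in size were those of Hip1r, known from human cells to send PD-L1 to lysosomes, at 1.73, of Stub1, a ubiquitin ligase, at 0.602, and of Fbxw7, another ligase, at 1.64. Csnk1a1 and Huwe1 had the most reads, at ratios of 0.990 and 1.14. Tmub1, also on this list, had 86.0 reads in the KO-host library and was at 0 in the WT-host library. With under 100 reads it could not be called. The CMTM family was not uniform. Cmtm4, the relative of Cmtm6 that can also stabilise PD-L1 in human cells, had 2601 reads in the KO-host library and 2343 in the WT-host library, a ratio of 1.24 (95% counting interval 1.17 to 1.31). Cmtm3 was at 0.790, and Cmtm7 was 2-fold lower, with 238 KO-host reads against 578 WT-host reads (ratio 0.459, 0.393 to 0.535). Cmtm8 had 10.0 reads in the KO-host library and was listed at 0 in the other.

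The other checkpoint ligands and enzymes gave 2 genes that were 2-fold higher and 0 that were lower among 12 with 100 reads and a value above 0 in each library. Shares over all such genes were 8.39% higher and 11.3% lower. Ido2, related to the tryptophan-degrading enzyme IDO1, had 110 reads in the KO-host library and was at 0 in the WT-host library, at least 40.9-fold higher against the floor of 3 reads. With this bound the median log2 read ratio of the list was 0.37, against 0.23 without it. Tnfsf10, which encodes the death ligand TRAIL, had 151.7 reads in the KO-host library and 7.0 in the WT-host library. Lgals3, another galectin, had 169 KO-host reads against 81.0 WT-host reads. Clec2d, a ligand of an inhibitory NK cell receptor, was at a ratio of 1.92, Hmgb1 at 0.738 and Lgals1 at 0.633. Among costimulatory ligands of the TNF family, Tnfsf9, the ligand of 4-1BB, had 42.0 KO-host reads against 114.0 WT-host reads and was the only one with 100 reads. Cd40, a receptor of the same pathway of costimulation, had 53.6 KO-host reads against 3.0 WT-host reads, a ratio of 19.9 with an interval from 6.51 to 100.4.

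The partners of CD73 and CD47 were mostly between the thresholds, as were most genes. Over all 10647 genes that could be called, 8.39% were 2-fold higher and 11.3% lower. Of 9 genes of the adenosine pathway with 100 reads, 0 were 2-fold higher and 2 were 2-fold lower. Enpp1, an ectoenzyme that makes AMP from ATP, had 110 reads in the KO-host library and 524 in the WT-host library, a ratio of 0.234 (95% counting interval 0.189 to 0.288). Panx1, a channel that releases ATP, was at 0.479. Cd38, which feeds the same pathway from NAD, was at 1.87, the AMP-cleaving phosphatase Acpp at 1.05 and the adenosine transporter Slc29a1 at 1.11. Around CD47, Itgb3 had 33.0 KO-host reads against 96.0 WT-host reads and was 2-fold lower. Lrp1, the receptor of calreticulin on phagocytes, was at 1.32 and Itgav at 0.888, and Siglecg, with few reads, was at 0.599. Sirpa, which encodes the receptor of CD47, had 93.0 KO-host reads against 109.0 WT-host reads.

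**Figure D5:**
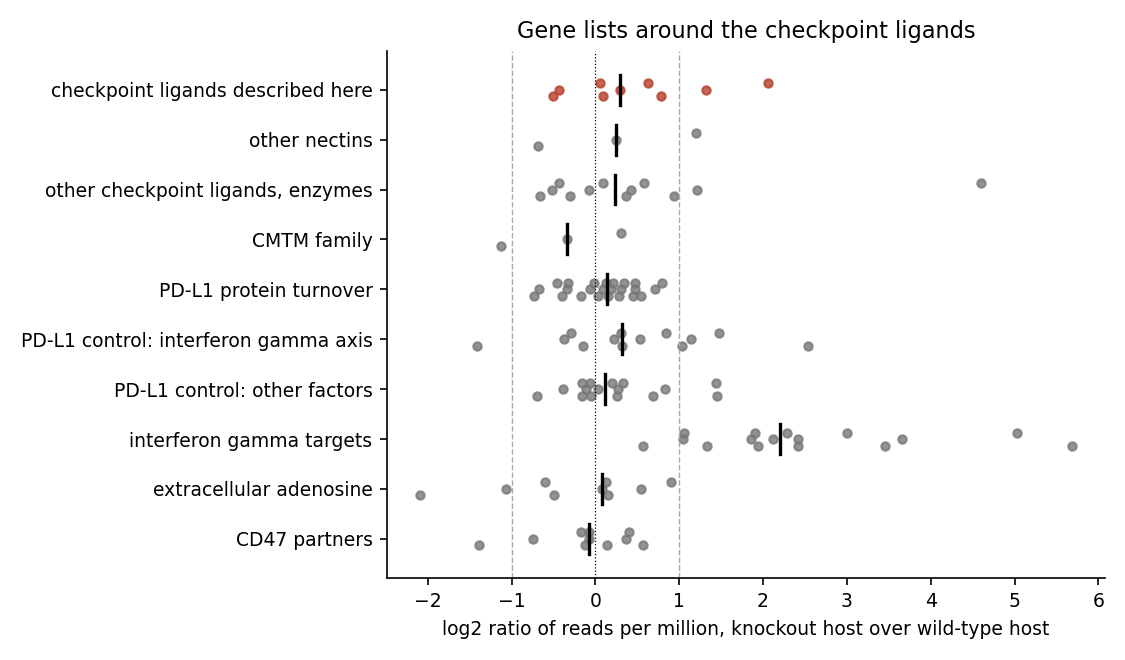
Log2 ratio of RPM, knockout host over wild-type host (x), of each gene with 100 reads over both libraries and a value above 0 in each (points) in 10 lists, with the median of each list (black bars) and the 2-fold thresholds (dashed lines). Interferon gamma targets have a median of 2.20, and the medians of the other 9 lists lie between -0.34 and 0.31.

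Of 20 checkpoint and related receptors, not all of which bind the 9 proteins described here, 9 were listed and 3 had 100 reads over both libraries. Cd44, a broadly expressed receptor of hyaluronan, made up most of their sum, at 1787 KO-host against 1241 WT-host RPM. Beside it stood Sirpa, given above, and Lag3, with 211 KO-host reads against 128 WT-host reads. Tigit, which encodes a receptor of Pvr and Nectin2, had 1 read in the KO-host library and 48 in the WT-host library. Pdcd1, which encodes PD-1, was not analysed here. Over 15 listed pan-leukocyte genes the sums were 33.3 RPM in the KO-host library and 37.7 in the WT-host library, with 0 genes at 0. Macrophage genes summed to 232.2 KO-host against 202.5 WT-host RPM over 14 genes, most of it from the lysozyme gene Lyz2 at 148.4 KO-host against 134.4 WT-host RPM. Of 9 macrophage genes with 100 reads, 2 were 2-fold higher, 1 was 2-fold lower and 6 lay between, from Mpeg1 at a ratio of 2.81 to Itgam at 0.118. For all marker lists, the shares over all genes were 8.39% higher and 11.3% lower. T and NK cell genes summed to 2.31 KO-host against 2.23 WT-host RPM over 3 listed of 14, but these genes also differed in opposite directions. Cd8a had 53.0 KO-host reads against 6.8 WT-host reads, Cd8b1 0 against 32.3 and Cd4 1.0 against 19.0. The dendritic cell list, which holds class II genes that interferon gamma also induces, summed to 62.8 KO-host against 23.7 WT-host RPM over 5 listed genes. Its largest part was Zbtb46, not a class II gene, at 39.8 KO-host against 20.3 WT-host RPM. The class II genes H2-Ab1 and H2-Aa were at 11.2 against 0.882 and 8.68 against 0.921 RPM. Markers of other CD45-negative cells moved beside Cd274 as well. Fibroblast genes summed to 1180 KO-host against 2589 WT-host RPM, pericyte and smooth muscle genes to 94.2 KO-host against 425.3 WT-host RPM, and epithelial genes to 333.4 KO-host against 206.0 WT-host RPM. The largest gaps in the fibroblast sum were those of Col3a1, at 473.7 KO-host against 1136 WT-host RPM, and Col1a1, at 88.1 against 618.0. Of 8 fibroblast genes with 100 reads, 0 were 2-fold higher, 4 were 2-fold lower and 4 lay between, among them Pdgfra at a ratio of 0.966. Endothelial genes summed to 14.5 KO-host against 18.5 WT-host RPM over 4 listed of 13, but these genes differed in opposite directions. Cdh5, which encodes VE-cadherin, had 146 reads in the KO-host library and 1 in the WT-host library. Plvap, a gene of fenestrated endothelium, had 58 reads in the KO-host library and 348 in the WT-host library, while Pecam1 had 128 KO-host and 129 WT-host reads. Most of the pericyte and smooth muscle sum came from Pdgfrb, at 72.3 KO-host against 353.1 WT-host RPM. In that list Cspg4 was at 0 in the KO-host library and had 190 reads in the WT-host library. Abcc9 went the other way, with 55.7 KO-host reads against 1 WT-host read. The part of these cell types in the differences of Cd274, Lgals9, Pvr, Cmtm6 and Cd276 was not tested.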

How the data were processed

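The authors deposited 1 table with a log2 value per gene and library, log2(FPKM + 1) per the name of the table. The submitters' processing notes list STAR 2.7.8a, Partek and mm39. Annotation release, strand handling and gene filter are not given in those sources. Turned back to FPKM and multiplied by the length column, each library summed to 1000000. That column equals the genomic span in 100% of rows, so introns count as length. The deposited stop lies 1 base past the annotated end (12446 of 12690 lengths equal the GENCODE M21 inclusive span), and ends are printed without it.

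Reads were recovered from the step between low values. Of values under 1000 reads, 83.4% (knockout host) and 84.9% (wild-type host) were whole within 0.1 read. Of the 9 genes, 7 were whole in both libraries. Values under 0.5 read were treated as listed at 0. RPM ratios carry Clopper-Pearson 95% intervals. Recovery and intervals were tested on simulated data (Python 3.11.15, scipy 1.17.1). The simulated counts were all whole reads, so the test does not cover values that are not whole, such as those of Cd274 and Cd47. Genes, lists and rules were chosen with earlier results of these data known. Named genes were the 9 genes, all listed B7, nectin and CMTM genes, the 5 neighbours of Cd274 on each side, the 5 genes with the nearest ratio, and from the other lists the 3 largest ratios and the 2 with most reads. Mtdh, Zeb1, Ptprc, Havcr2, Tigit, Cxcl9, Ido2, Cspg4, Abcc9 and Pdgfra were chosen outside this rule, after their values were seen. 1 gene that this rule names is not reported here.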

Additional observations from a re-analysis of the deposited data

How the results depend on the processing

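Leaving out a replicate was not possible with 1 library per host. No paired analysis was possible because each host has a single library. The 9 genes kept the sign of their difference under all 6 alternatives of the deposited scale (0.1 or 5 added, 4 scalings) and all 3 scalings of the read ratio. Cd274 ranged from 0.64 to 1.96 on the deposited scale and from 2.07 to 2.12 as a log2 read ratio. The count of genes called on the deposited scale, 1, was 0 with 5 added, where Cd274 was at 0.64, when a mean of 2 was required, which leaves out Cd274, and among genes with whole reads, which also leaves it out. On the read scale the count of 2 was 1 with 1000 or more reads, which leaves out Lgals9. The median difference of 0.08 was 0.15 with 0.1 added, 0.034 with 5 added, 0.13 under median-of-ratios and 0.13 under trimmed mean scaling, 0.12 under quantile normalization and 0.035 among the 7 genes with whole reads. Scaling raised the log2 read ratios of all genes by at most 0.06 (trimmed mean). The comparison of lengths for the order of levels was chosen after seeing the data.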
